A study of Mus musculus with 18 samples.

Results

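The late state of mouse cortex after a stroke was examined in the arm labelled as given an RNA against Tiparp in neurons, by comparing 28 d after occlusion of an artery with sham surgery. The comparison rests on 6 of the 18 libraries of the series, 3 per group, chosen by their labels. Sham_T is ipsilateral cortex after sham surgery. R28d_T is ipsilateral cortex taken 28 d after tMCAO (transient middle cerebral artery occlusion): the artery that feeds the lateral cortex and striatum is blocked and then reopened. Both groups were male C57BL/6J mice of 8 to 10 weeks and 24 to 26 g, and both had received, 4 weeks before surgery, an adeno-associated virus (AAV) in the left lateral ventricle. This virus (AAV-SYN) expresses a short hairpin RNA (shRNA) from the synapsin promoter, which is active in neurons, so that glia, vessels and blood cells are not its target. By the labels the shRNA against Tiparp was given to the shams as well, and the groups differ in the surgery. The labels give no time for the shams. The other arm, Sham_C and R28d_C, had a scramble shRNA with the same surgery and time.

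Weeks after an arterial occlusion, the cortex around the lost tissue holds reactive astrocytes, which make the filament protein Gfap, and microglia, the resident macrophages of brain, which clear debris and myelin. Microglia in such lesions turn on genes for lysosomes, complement and lipid handling, a state often called disease-associated. Cells that take up lipid shut down their own sterol synthesis through the SREBP2 pathway and export the excess through Abca1 and Apoe. Tiparp encodes a mono-ADP-ribosyltransferase of the PARP family, induced by the aryl hydrocarbon receptor.

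The unit is FPKM, fragments scaled to transcript length and library size, for 37319 genes. Per library, 25925 to 27113 of the genes were above 0. Read totals are not in the deposited table, but by the size of the lowest values the relative depth was 0.941 to 1.081, with Sham_T1 as 1. Libraries of Sham_T had a Pearson's r of 0.979 to 0.983 with each other across the 13544 genes tested, and those of R28d_T had 0.951 to 0.970. The R28d_T libraries thus differed more among themselves: 455 genes in R28d_T1, 280 in R28d_T2 and 52 in R28d_T3 were more than 1 above the mean of Sham_T on the log2(FPKM + 1) scale, so that R28d_T3 stood closest to sham. Genes of the mitochondrial genome took 41.4%, 40.8% and 41.1% of the summed FPKM in Sham_T1, Sham_T2 and Sham_T3, and 31.2%, 35.5% and 39.9% in R28d_T1, R28d_T2 and R28d_T3. Whether each library is a mouse of its own is not in the labels, and p-values refer to the spread among the libraries, which may be technical.

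Tiparp itself was at 4.17, 4.95 and 4.57 FPKM in the Sham_T libraries and at 3.97, 4.06 and 3.72 FPKM in the R28d_T libraries. The groups did not overlap, and the mean after occlusion was 85.8% of that in sham. The difference was -0.18 on the log2(FPKM + 1) scale, with an exact two-sided permutation p = 0.1, the smallest that 3 against 3 libraries allow, and an adjusted p = 0.544 by limma. In the scramble arm Tiparp was at 4.45, 4.76 and 3.77 FPKM in sham and at 4.46, 3.59 and 3.77 FPKM at 28 d. The Sham_T and Sham_C libraries overlapped, so the level in whole cortex does not show a knockdown in the shams, and a knockdown in neurons alone cannot be read from it. The arms are named by their labels throughout.

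Of 13544 genes tested with limma, 1 rose and 1 fell at an adjusted p of 0.05, or 0.00738% in each direction. At an unadjusted p under 0.05 there were 1052 higher (7.77%) and 376 lower (2.78%). The count depends on how libraries are weighted: array weights, which let limma trust the libraries unequally, gave 1717 higher and 690 lower, and the replicate number as a block gave 0 and 0. Srgap3 (ENSMUSG00000030257), which encodes a GTPase-activating protein of neurons, rose from 9.75, 7.73 and 8.44 FPKM in sham to 35.1, 35.2 and 35.3 FPKM at 28 d, a difference of 1.91 (SE 0.094, adjusted p = 0.00359). One of 2 entries named Map2k7 (ENSMUSG00000109061), the symbol of a kinase that activates JNK, fell from 5.96, 3.49 and 4.85 FPKM to 0.237, 0.330 and 0.0621 FPKM, with a difference of -2.24 (SE 0.18, adjusted p = 0.0455). All its R28d_T values were under 1 FPKM, so it met the filter on low values only through the Sham_T libraries. Without that filter its adjusted p by limma was 0.346, and it was not called. The other entry (ENSMUSG00000002948) was at 7.86, 8.21 and 8.06 FPKM and 14.5, 12.8 and 13.04 FPKM, in the opposite direction (0.67, adjusted p = 0.195), and how reads were divided between the entries was not tested.

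Both called genes took 2 levels over the 18 libraries of the series, and the levels cut across the groups. For Srgap3, 9 libraries held 5.88 to 9.88 FPKM and the other 9 held 30.2 to 43.6 FPKM, and 4 of the 6 groups held both levels. In Sham_C it was at 9.88, 34.4 and 9.62 FPKM, in R28d_C at 9.09, 35.9 and 36.3 FPKM and in R24h_T at 43.6, 9.51 and 38.6 FPKM. The called Map2k7 entry ranged from 0.062 to 1.40 FPKM over 12 libraries and from 3.39 to 6.88 FPKM over the remaining 6, with both levels in 3 groups. The non-coding gene Gm16701, at 4.68, 3.25 and 4.99 FPKM in Sham_T and 0, 0.753 and 0.607 FPKM in R28d_T (-1.89, adjusted p = 0.195), had both levels in 4 groups. It too met the filter on low values only through Sham_T. Srgap3 missed the threshold without Sham_T3 (adjusted p = 0.0570) or R28d_T2 (0.0565), and the Map2k7 entry missed it without R28d_T1 (0.104) or R28d_T2 (0.164). With any 1 Sham_T library left out, the Map2k7 entry no longer met the filter and was not tested, and 0 genes were called lower. In these genes the difference between the 3 Sham_T and the 3 R28d_T libraries is no larger than the difference between libraries of 1 group elsewhere in the series.

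**Figure D1:**
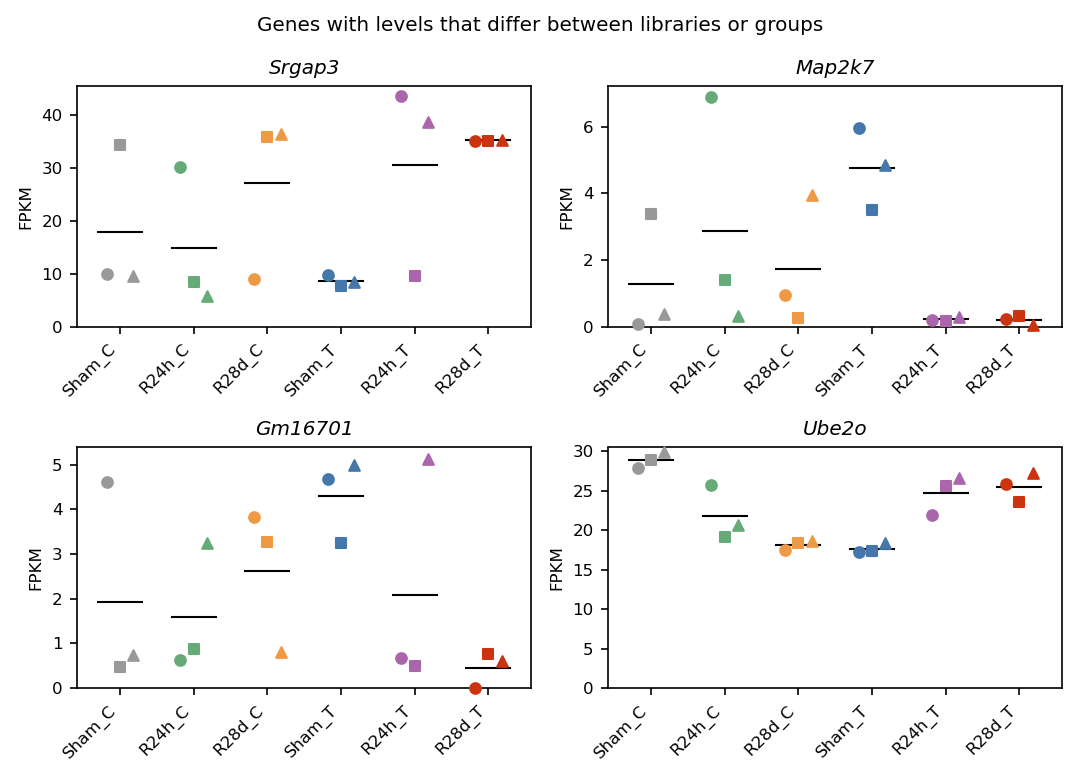
FPKM (linear axis) of Srgap3, the called Map2k7 entry, Gm16701 and Ube2o in each library (points; circle, square and triangle for replicates 1, 2 and 3) of the 6 groups, with the mean as a line. The R28d_T and Sham_T libraries of Srgap3 lie apart, at 35.1 to 35.3 and 7.73 to 9.75 FPKM, while Sham_C, R24h_C, R28d_C and R24h_T each hold low and high libraries.

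Some genes that missed the threshold were as evenly split between the groups. Sarm1, which encodes the NAD-cleaving enzyme that drives axon breakdown, was at 4.93, 5.18 and 5.01 FPKM in Sham_T and 2.41, 2.74 and 2.54 FPKM in R28d_T (-0.76, SE 0.080, adjusted p = 0.167). In Sham_C it was at 6.30, 3.03 and 5.36 FPKM and in R28d_C at 3.15, 5.22 and 5.46 FPKM, so that both levels occurred in each of those groups. Rps25, a protein of the small ribosomal subunit, was at 12.7, 12.3 and 12.6 FPKM and 24.5, 20.4 and 19.2 FPKM (0.72, adjusted p = 0.221), and at 12.1, 10.7 and 10.7 FPKM in Sham_C. Idh2, the mitochondrial isocitrate dehydrogenase, was at 12.3, 11.9 and 11.5 FPKM and 19.3, 16.8 and 16.3 FPKM (0.51, adjusted p = 0.359).

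The broad pattern was a set of glial and immune genes that lay above sham in every R28d_T library, by an amount that differed several times over between libraries. None of these genes passed limma with all 6 libraries. Over the 33008 genes above 0 in at least 1 of the 6 libraries, 8.39% had all R28d_T libraries above all Sham_T libraries (2768 genes) and 3.88% (1281 genes) had all below. Among the 13544 tested genes the shares were 10.9% (1476 genes) and 5.43% (736 genes), and scaling by median ratios moved these counts to 1294 and 1035. The lists that follow are read against these shares, and lists of well-expressed genes against those of the tested genes. With R28d_T3 left out, 512 genes (3.84%) rose and 56 (0.42%) fell among the 13333 tested by limma, so that the count rests on the library closest to sham. Leaving out any other library gave 0 to 4 higher and 0 lower. R28d_T3 was picked out by these same values, so p-values and counts without it, here and below, are no independent support. In bulk cortex, more cells of a type and more RNA per cell cannot be told apart.

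Most disease-associated microglia genes lay above sham. All 20 were in the table, 18 passed the filter on low values, and in 15 (75.0%) the groups did not overlap, all with R28d_T above Sham_T. The median difference over the 20 was 1.68 on the log2(FPKM + 1) scale, against 0.015 over all genes above 0, and the medians by library were 2.42 in R28d_T1, 2.05 in R28d_T2 and 0.52 in R28d_T3. Cst7, a lysosomal protease inhibitor that resting microglia hardly express, was at 0.0625, 0.418 and 0.456 FPKM in Sham_T and at 37.3, 33.1 and 6.63 FPKM in R28d_T. Its difference was 4.05 (SE 0.59, adjusted p = 0.234). Lyz2, the lysozyme of macrophages, was at 5.96, 6.46 and 5.58 FPKM in sham and at 597, 185 and 17.1 FPKM at 28 d. Spp1, the secreted phosphoprotein osteopontin, was at 5.95, 5.01 and 2.997 FPKM and 260.1, 77.6 and 10.6 FPKM. Every one of these genes had its highest value in R28d_T1 and its lowest of the 3 in R28d_T3, where Cst7 was still above each sham. Without R28d_T3, the library picked out as closest to sham, 14 members were still tested. All 14 passed limma with a higher level, beside 3.84% of all genes. Trem2, the lipid receptor through which microglia enter this state, was at 2.72, 3.52 and 3.09 FPKM in sham and 17.9, 13.6 and 4.89 FPKM at 28 d (1.52, adjusted p = 0.373, and 0.0104 without R28d_T3). Its adaptor Tyrobp was at 17.5, 19.1 and 16.9 FPKM and 137, 86.4 and 28.7 FPKM. The lysosomal protein Cd68 was at 11.5, 12.6 and 12.8 FPKM and 127, 79.2 and 22.1 FPKM, and the protease cathepsin D (Ctsd) at 99.1, 108 and 98.5 FPKM and 558, 388 and 136 FPKM.

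Markers of homeostatic microglia did not move as 1 group. Of 12 markers, all tested, 8 did not overlap on the higher side and 1 on the lower side, with a median of 0.72. Csf1r, the receptor for the survival factor of microglia, was at 16.02, 15.5 and 19.1 FPKM in sham and 45.9, 40.8 and 22.2 FPKM at 28 d (1.003, adjusted p = 0.372), and Tmem119 was at 6.66, 7.32 and 7.85 FPKM and 16.3, 13.7 and 9.46 FPKM. P2ry12, the purinergic receptor that guides processes of resting microglia, lay below sham at 11.1, 11.3 and 11.4 FPKM against 12.6, 14.96 and 16.8 FPKM (-0.35, adjusted p = 0.408). Its R28d_T libraries were nearly equal, unlike those of Cst7 or Lyz2. Aif1, which encodes IBA1, overlapped at 1.93, 1.29 and 1.80 FPKM and 5.80, 3.01 and 1.79 FPKM, with R28d_T3 inside the range of sham. The chemokine receptor Cx3cr1 varied within both groups, at 10.5, 10.6 and 1.68 FPKM in Sham_T and 3.98, 12.7 and 10.1 FPKM in R28d_T.

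Reactive astrocyte genes showed the same order of libraries. Of 31 genes 13 passed the filter on low values, 22 (71.0%) did not overlap with R28d_T above Sham_T, and none lay entirely below. The median over the 31 was 1.21, and 1.97, 1.21 and 0.23 in R28d_T1, R28d_T2 and R28d_T3. Gfap was at 49.5, 40.2 and 27.5 FPKM in the 3 shams and at 886, 533 and 96.8 FPKM in R28d_T1, R28d_T2 and R28d_T3. Its mean was 12.9-fold that of sham (3.20, SE 0.77, adjusted p = 0.367, and 0.0104 without R28d_T3). Vim, another intermediate filament of reactive astrocytes, was at 2.36, 2.03 and 1.74 FPKM and 56.4, 23.3 and 4.52 FPKM. The secreted serpin Serpina3n was at 8.94, 6.35 and 6.43 FPKM and 361, 123 and 18.5 FPKM. Lcn2, the iron-carrier-binding lipocalin, was at 0.192, 0.140 and 0.244 FPKM in sham and at 97.2, 18.6 and 0.421 FPKM at 28 d, so that 2 libraries were high and R28d_T3 was near sham. General astrocyte markers differed less: 2 of 13 did not overlap on the higher side, Sox9 and Gjb6, and the median was 0.24. The glutamate transporter Slc1a2 was at 202, 224 and 200.2 FPKM in sham and 175, 187 and 201 FPKM at 28 d, with overlap.

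**Figure D2:**
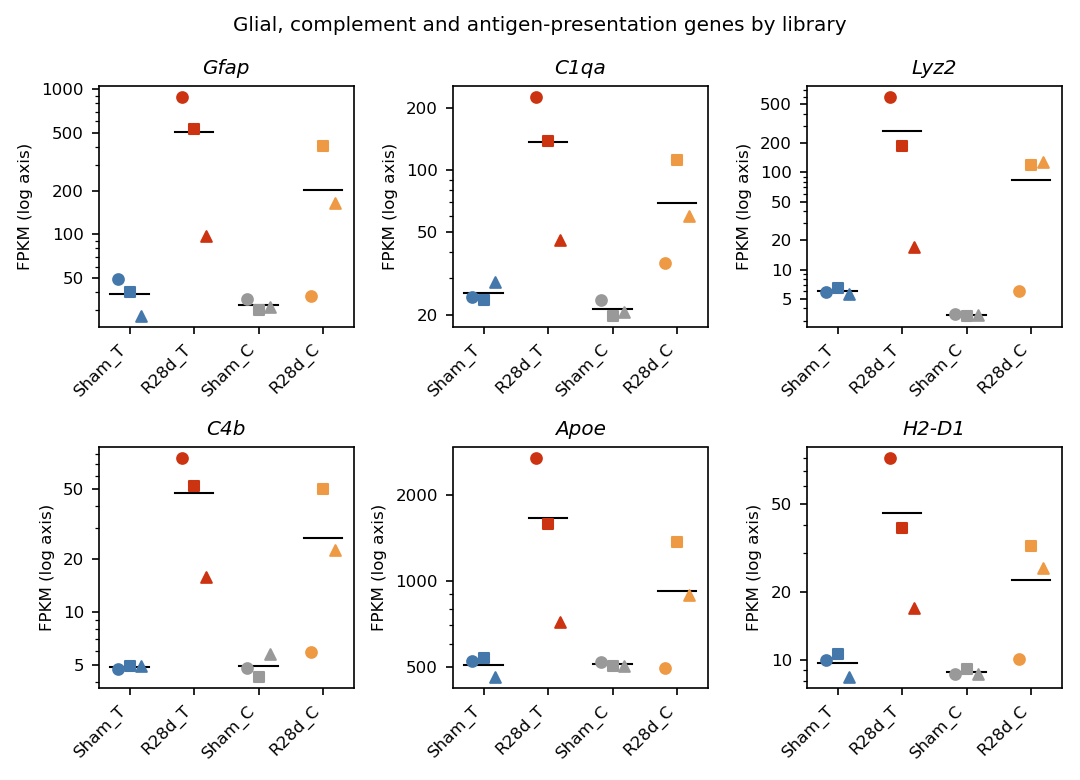
FPKM (log axis) of Gfap, C1qa, Lyz2, C4b, Apoe and H2-D1 in each library of the 4 groups Sham_T, R28d_T, Sham_C and R28d_C (points; circle, square and triangle for replicates 1, 2 and 3; the line is the mean). In R28d_T replicate 1 is highest and replicate 3 lowest for all 6 genes, and in R28d_C replicate 1 is the lowest.

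Complement genes, which tag debris and synapses for removal, had 11 of 16 members (68.8%) without overlap on the higher side and 0 on the lower, with a median of 1.24. The 3 chains of C1q, made by microglia, did not overlap between the groups. C1qa was at 24.4, 23.5 and 28.9 FPKM in sham and 226, 138 and 46.1 FPKM at 28 d, a difference of 2.11 (adjusted p = 0.367). C4b, the next factor of the classical pathway, was at 4.72, 4.93 and 4.91 FPKM and 75.2, 52.1 and 15.8 FPKM, and its difference of 2.80 (SE 0.51) had an adjusted p = 0.367, and 0.00773 without R28d_T3. C3, on which the pathways converge, did not reach 1 FPKM in enough libraries to be tested, at 0.259, 0.171 and 0.0939 FPKM in sham and 123, 32.3 and 0.611 FPKM at 28 d. Serping1, the C1 inhibitor, was at 1.31, 1.69 and 0.704 FPKM and 32.3, 8.71 and 3.23 FPKM.

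Antigen presentation genes followed. Of 15, 10 (66.7%) did not overlap on the higher side and 0 on the lower, with a median of 1.34. The class II chaperone Cd74 was at 2.36, 2.29 and 1.26 FPKM in sham and 63.3, 18.1 and 5.55 FPKM at 28 d (2.78, adjusted p = 0.379). The class I heavy chain H2-D1 was at 9.97, 10.6 and 8.34 FPKM and 79.7, 38.9 and 17.1 FPKM, and the class I light chain B2m at 103, 116 and 89.6 FPKM and 543, 306 and 150.4 FPKM. H2-D1 was above sham in all 3 R28d_T libraries, with a difference of 1.87 (adjusted p = 0.372). Among interferon response genes 16 of 23 (69.6%) lay above sham without overlap, 0 below, with a median of 0.55. Ifitm3, which hinders viral entry, was at 3.45, 4.23 and 3.86 FPKM in sham and 47.6, 21.6 and 7.33 FPKM at 28 d (2.11, adjusted p = 0.380).

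Fewer cytokines and chemokines were without overlap. Of 22 genes, 8 passed the filter on low values, and 7 (31.8%) did not overlap on the higher side and 0 on the lower, with a median of 0.56. Ccl3, a chemokine of microglia, was at 0.161, 0.255 and 0.158 FPKM in sham and 8.46, 5.97 and 1.21 FPKM at 28 d, and Tgfb1 at 1.09, 1.25 and 1.15 FPKM and 4.97, 3.86 and 1.80 FPKM. The acute cytokines Il1b and Tnf were low in R28d_T, with Il1b at 1.08, 0.436 and 0.103 FPKM and Tnf at 0.660, 0.178 and 0 FPKM. Il6 was at or below 0.0995 FPKM in the 6 libraries.

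Some markers of border macrophages and of blood-derived cells moved with these lists. The summed FPKM of 12 border macrophage and monocyte markers was 3.63 to 4.43 in Sham_T and 20.2, 12.95 and 5.90 in R28d_T1, R28d_T2 and R28d_T3, with 7 of 12 markers above sham without overlap. The filter on low values was passed by 2 of these 12, by 0 of 8 neutrophil markers and by 4 of 14 lymphocyte markers. The monocyte marker Ccr2 was at 0.545, 0.127 and 0.0291 FPKM in R28d_T. Neutrophil markers summed to 0.231 to 0.635 FPKM in Sham_T and to 15.0, 12.8 and 1.33 FPKM in R28d_T, with 4 of 8 (50%) above sham without overlap. S100a9, the largest part of this sum, was at 10.1, 8.25 and 0.628 FPKM, while Ly6g, which defines neutrophils, was at 0 in all 6 libraries. Of 14 lymphocyte markers 2 (14.3%) lay above sham without overlap and 1 (7.14%) below. They summed to 35.0, 42.8 and 47.5 FPKM in Sham_T and to 1186, 61.2 and 19.4 FPKM in R28d_T, so that R28d_T3 was under every sham. Antibody genes were high in 1 library: Igkc, the kappa light chain, was at 0.956, 2.64 and 13.97 FPKM in Sham_T and 1085, 27.8 and 0.739 FPKM in R28d_T, and Igha, the heavy chain of IgA, at 153, 2.53 and 0.122 FPKM in R28d_T. Jchain, which joins IgA units in plasma cells, was at 39.7, 1.21 and 0.220 FPKM. The T cell gene Cd3e was at 0 to 0.015 FPKM in Sham_T and at 0.169, 0.0398 and 0.0161 FPKM in R28d_T. The part of these cells in the microglial, complement and antigen presentation lists was not tested.

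Gene Ontology terms in the deposited table gave the same picture over larger groups. Of 350 genes annotated to immune system process, 127 (36.3%) lay above sham without overlap and 5 (1.43%) below. For inflammatory response it was 94 of 297 (31.6%) above and 3 below, for phagocytosis 17 of 51 (33.3%) and 0, for wound healing 30 of 84 (35.7%) and 0, and for extracellular matrix 83 of 274 (30.3%) and 4. Lysosome had 67 of 308 (21.8%) above and 6 below. Terms of neurons differed among themselves: of 455 synapse genes 45 (9.89%) lay below and 25 (5.49%) above, and of 98 synaptic vesicle genes 12 (12.2%) below and 4 (4.08%) above. Dendrite had 39 of 355 (11%) above and 26 (7.32%) below, neuronal cell body 33 of 365 (9.04%) above and 25 (6.85%) below, and axon 21 of 284 above and 24 below. Translation had 35 of 303 (11.6%) above. Many of these genes are also in the lists above, so the terms are not independent of them.

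**Figure D3:**
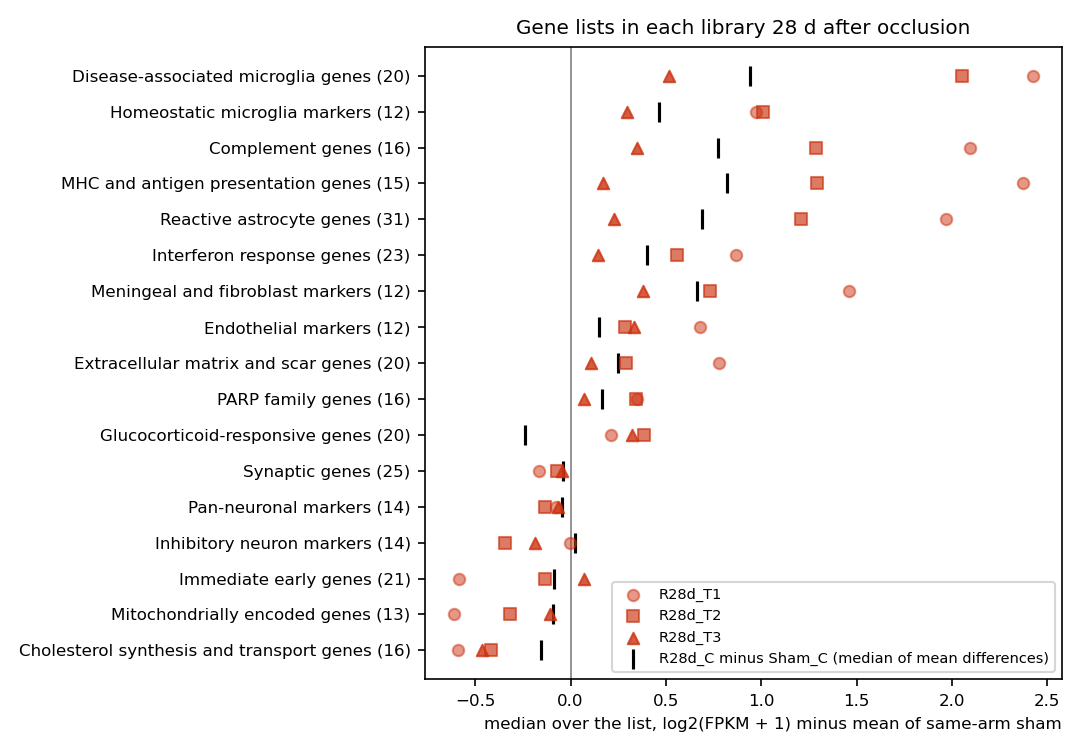
Median over the genes of each list (number of genes in parentheses) of log2(FPKM + 1) minus the mean of Sham_T, in R28d_T1, R28d_T2 and R28d_T3, with the median difference of R28d_C from Sham_C as a black bar. Immune and glial lists spread from R28d_T3 to R28d_T1 on the right, while the cholesterol list lies between -0.59 and -0.42 in all 3 R28d_T libraries.

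Cholesterol synthesis genes lay below sham in all 3 libraries by like amounts. Of the 16 genes of synthesis, uptake and transport, all tested, 12 (75.0%) did not overlap on the lower side and 2 on the higher side. The median was -0.49 over the list, and -0.59, -0.42 and -0.47 in R28d_T1, R28d_T2 and R28d_T3, so that R28d_T3, close to sham in the glial lists, was not so here. None passed limma over all genes with 6 libraries, and 4 passed on the lower and 3 on the higher side without R28d_T3.

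Hmgcs1, the synthase at the start of the pathway, was at 38.1, 51.4 and 37.4 FPKM in Sham_T and at 22.4, 28.02 and 23.96 FPKM in R28d_T. The groups stood apart, with a difference of -0.74 (SE 0.15, adjusted p = 0.367). Idi1, the isomerase of isoprenoid units, had the largest difference of the list on the lower side, at 11.7, 11.001 and 10.6 FPKM and 0.894, 6.39 and 5.05 FPKM (-1.46, SE 0.48), and its lowest library was R28d_T1. Fdps and Fdft1, which build squalene, were at 3.40, 3.63 and 3.998 FPKM and 14.1, 17.5 and 19.3 FPKM in R28d_T, against 5.34, 5.68 and 5.59 FPKM and 24.9, 24.4 and 22.8 FPKM in Sham_T. Sqle, the epoxidase of squalene, was at 7.35, 7.83 and 8.40 FPKM and 5.05, 5.65 and 5.17 FPKM, each group being tight (-0.49, SE 0.085, adjusted p = 0.359), and the lanosterol demethylase Cyp51 at 13.3, 11.3 and 12.1 FPKM and 6.45, 8.84 and 8.26 FPKM.

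The regulators of the pathway lay on the same side. Srebf2, which encodes SREBP2, was at 34.5, 38.5 and 36.5 FPKM in sham and 26.2, 31.3 and 28.4 FPKM at 28 d (-0.34, adjusted p = 0.379). Insig1, which retains the SREBP complex in the endoplasmic reticulum and is itself a target of it, was at 16.4, 16.6 and 14.3 FPKM and 8.10, 11.2 and 8.47 FPKM (-0.72). Stard4, a sterol carrier outside the list and named by its p, was at 3.34, 3.71 and 3.23 FPKM and 1.54, 1.72 and 1.77 FPKM (-0.73, SE 0.089, adjusted p = 0.195). The 2 genes on the higher side act in export. Abca1, which loads cholesterol onto lipoproteins, was at 3.50, 3.22 and 3.68 FPKM in sham and 26.6, 13.1 and 4.91 FPKM at 28 d (1.57, adjusted p = 0.411), and Apoe, the main apolipoprotein of brain, at 523, 537 and 461 FPKM and 2690.0, 1586 and 718 FPKM (1.52, adjusted p = 0.387). These 2 followed the order of the glial genes, with R28d_T1 highest. Cyp46a1, the neuronal hydroxylase that turns cholesterol over, overlapped. Of 31 genes annotated to cholesterol biosynthetic process, 16 (51.6%) lay below sham without overlap and 2 above.

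In the scramble arm 1 of the 16 genes lay below its sham without overlap and 0 above. Of the 13544 genes tested in the Tiparp arm, 802 lay below and 1742 above without overlap in the scramble arm. Over all genes above 0 in that arm the shares were 4.44% and 8.68%. There Hmgcs1 was at 34.4, 32.04 and 27.9 FPKM in Sham_C and 35.2, 20.9 and 31.2 FPKM in R28d_C, so that R28d_C2 alone was as low as R28d_T, and R28d_C2 was also the highest R28d_C library in Gfap (37.8, 407 and 165 FPKM). The responses of the arms differed by -0.60 for Hmgcs1 (SE 0.26, adjusted p = 0.956 in limma's interaction test) and by -0.54 for Insig1. For Hmgcs1 every Sham_T library lay above every Sham_C library, and the part of this gap in that difference was not tested. Of the 16 genes, 3 had an unadjusted interaction p under 0.05, beside 2.51% of all genes on the higher side and 2.33% on the lower.

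**Figure D4:**
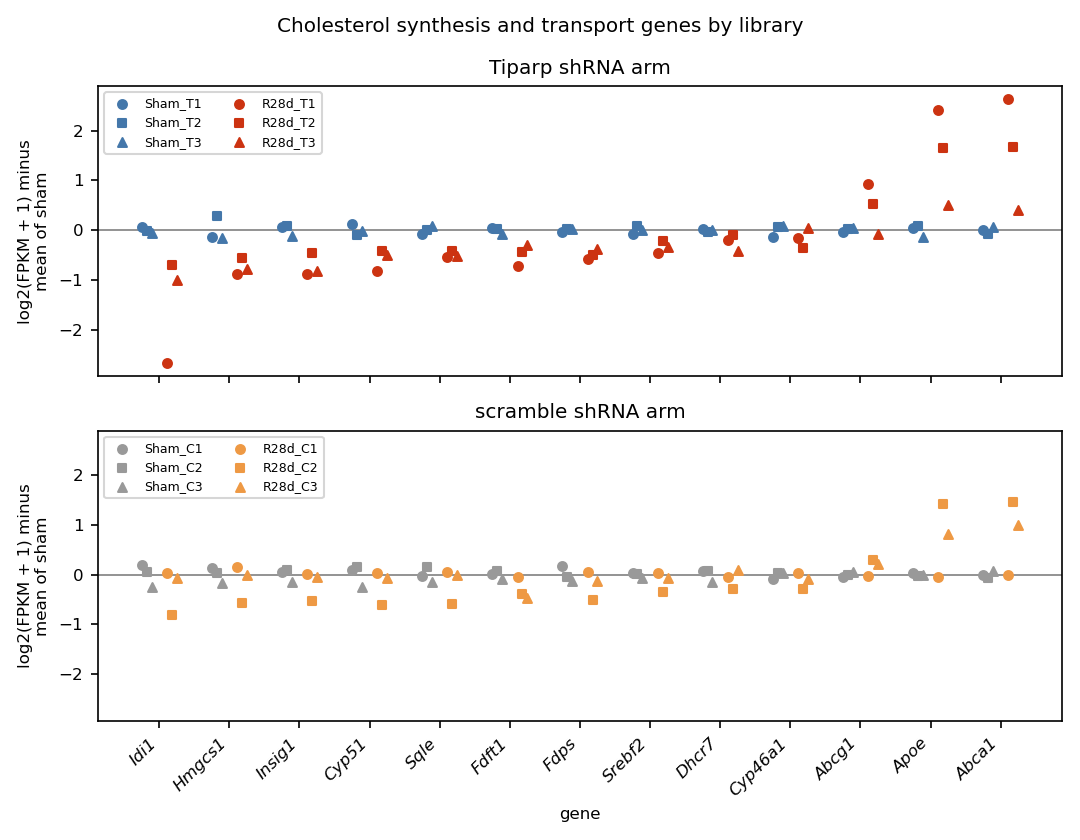
The genes of the cholesterol list reported singly, by library, as log2(FPKM + 1) minus the mean of the sham libraries of the same arm, for the Tiparp shRNA arm (top) and the scramble arm (bottom); circle, square and triangle are replicates 1, 2 and 3. In the top panel all 3 R28d_T libraries lie below the 3 Sham_T libraries for the 9 genes from Idi1 to Dhcr7, and in the bottom panel R28d_C2 is the lowest R28d_C library for 8 of these 9, all but Fdft1.

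Promoters of 4 genes that lay below sham are shown, picked after the motif matches were seen, and all 4 hold a CCAAT box. RefSeq promoter windows (GRCm38.p6, the 250 bases before the start) were on hand for 9 of the 16 genes, 13 windows in all. They were searched on both strands for the sterol regulatory element TCACNCCAC, to which SREBP2 binds, and for the CCAAT box of NF-Y, its usual partner. The 2 motifs do not overlap in the windows shown, and both are in capitals, a CCAAT box on the other strand reading ATTGG. The element TCACNCCAC was in 1 of the 13 windows, that of Hmgcs1 (137 bases before the start), and in 1.05% of all 32851 windows of the table. CCAAT boxes were in 7 of the 13 windows and in 33.8% of all windows.
Hmgcs1 (chr13:119690101-119690350, plus strand): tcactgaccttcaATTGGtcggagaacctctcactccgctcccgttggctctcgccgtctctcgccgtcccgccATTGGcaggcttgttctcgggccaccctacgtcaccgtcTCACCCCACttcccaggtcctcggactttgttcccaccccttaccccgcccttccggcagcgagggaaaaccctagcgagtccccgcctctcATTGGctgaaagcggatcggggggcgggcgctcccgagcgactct
Idi1 (chr13:8885356-8885605, plus strand): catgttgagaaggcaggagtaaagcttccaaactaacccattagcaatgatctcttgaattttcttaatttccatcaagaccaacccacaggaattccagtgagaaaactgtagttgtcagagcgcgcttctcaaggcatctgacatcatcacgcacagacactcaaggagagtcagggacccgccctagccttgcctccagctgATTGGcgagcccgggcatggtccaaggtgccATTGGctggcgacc
Insig1 (chr5:28071162-28071411, plus strand): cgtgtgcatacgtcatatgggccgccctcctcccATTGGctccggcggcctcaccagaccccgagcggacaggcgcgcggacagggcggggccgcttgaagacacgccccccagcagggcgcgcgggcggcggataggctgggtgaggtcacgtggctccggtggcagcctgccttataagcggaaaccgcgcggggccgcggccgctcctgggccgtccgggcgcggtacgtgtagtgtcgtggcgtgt
Cyp51 (chr5:4104698-4104947, minus strand): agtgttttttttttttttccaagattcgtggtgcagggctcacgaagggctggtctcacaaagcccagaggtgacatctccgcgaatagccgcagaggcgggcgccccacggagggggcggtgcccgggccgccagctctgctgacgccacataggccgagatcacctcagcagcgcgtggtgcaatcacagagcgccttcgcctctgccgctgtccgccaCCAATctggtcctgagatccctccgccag
Hmgcs1 holds 3 CCAAT boxes, Idi1 2, and Insig1 and Cyp51 1 each. Srebf2 and Dhcr7 also lay below sham: the window of Srebf2 holds 1 CCAAT box, and of the 3 windows of Dhcr7, 2 hold neither motif. Cyp46a1, which overlapped, holds 1, and the windows of Abca1 and Apoe, which lay above sham, hold neither. A match describes these letters only.

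Most endothelial and meningeal markers lay above sham in all 3 libraries. Of 12 endothelial markers 9 (75.0%) did not overlap on the higher side and 0 on the lower, with a median of 0.47. Cldn5, the tight-junction claudin of the blood-brain barrier, was at 1.18, 1.17 and 1.44 FPKM in sham and 4.47, 2.66 and 2.42 FPKM at 28 d (0.86, SE 0.19, adjusted p = 0.367). Ly6c1 was at 4.31, 4.31 and 4.86 FPKM and 10.9, 7.65 and 6.70 FPKM, and the glucose transporter Slc2a1 at 10.9, 12.2 and 12.6 FPKM and 18.96, 19.3 and 15.4 FPKM. The medians by library were 0.68, 0.29 and 0.33, so that R28d_T3 stood with R28d_T2 here. In the scramble arm all 12 overlapped between R28d_C and Sham_C. The shams stood apart: the list summed to 37.8, 40.1 and 40.9 FPKM in Sham_T and to 49.9, 50.7 and 48.0 FPKM in Sham_C. It summed to 72.3, 58.0 and 55.3 FPKM in R28d_T and to 36.5, 63.0 and 54.1 FPKM in R28d_C. The part of the sham gap in the difference at 28 d was not tested. Of 10 members in limma's interaction test, 3 had an unadjusted p under 0.05, beside 2.51% of all genes on the higher side and 2.33% on the lower. Of 12 meningeal and fibroblast markers 9 (75.0%) did not overlap on the higher side, with a median of 0.83. Dcn, a proteoglycan of fibroblasts, was at 3.62, 3.25 and 2.28 FPKM and 22.1, 8.75 and 4.08 FPKM, and Col1a1, a chain of collagen I, at 0.787, 0.624 and 0.297 FPKM and 4.30, 1.94 and 1.22 FPKM. Summed over the list, Sham_T3 was the lowest library at 89.9 FPKM, with 204 and 219 FPKM in the other shams. How much meninges each dissection held was not tested. Of 20 extracellular matrix and scar genes 8 (40.0%) lay above sham without overlap.

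Neuronal genes differed by small amounts. Of 14 pan-neuronal markers 0 lay above sham without overlap and 2 below, Map2 and Snap25, or 4 below after scaling by median ratios. The mean was below that of sham in 13 of the 14, with a median of -0.13. Rbfox3, which encodes NeuN, was at 49.4, 48.4 and 50.99 FPKM in sham and 42.8, 42.1 and 50.97 FPKM at 28 d. Snap25, a protein of vesicle fusion, was at 369, 392 and 349 FPKM and 304, 303 and 339 FPKM (-0.23, adjusted p = 0.456). Of 25 synaptic genes 3 lay below without overlap and 0 above, with a median of -0.06. Excitatory cortical markers had 0 of 13 without overlap in either direction. Inhibitory markers had 3 of 14 below (21.4%) and 0 above. Lamp5, of neurogliaform interneurons, was at 53.1, 66.7 and 50.9 FPKM in sham and 31.3, 25.6 and 49.1 FPKM at 28 d (-0.71, adjusted p = 0.412), so R28d_T3 lay next to the lowest sham. Pvalb, of fast-spiking interneurons, was at 34.6, 38.8 and 28.2 FPKM and 24.3, 24.2 and 24.9 FPKM, and the neuropeptide Npy at 119, 133 and 119 FPKM and 96.7, 92.1 and 109.5 FPKM. Rgs4, a regulator of G-protein signalling in cortical neurons, was at 91.4, 98.3 and 83.4 FPKM and 63.3, 55.7 and 62.05 FPKM (-0.58, SE 0.095, adjusted p = 0.326), and the calmodulin regulator Pcp4 at 319, 353 and 295 FPKM and 214, 217 and 196 FPKM. For both, the 3 R28d_T libraries were close to each other and below every sham.

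Markers of tissue next to the cortex varied within the groups. The striatal markers summed to 157, 186 and 345 FPKM in the Sham_T libraries, in order, and to 199, 43.5 and 77.9 FPKM in R28d_T1, R28d_T2 and R28d_T3. The dopamine receptor Drd1 was at 3.60, 4.70 and 10.1 FPKM and 5.46, 1.26 and 1.89 FPKM. All 12 markers overlapped between the groups, with a median of -0.93. Ttr, the transthyretin of choroid plexus, was at 624, 501 and 7.39 FPKM in Sham_T and 5.68, 712 and 9.37 FPKM in R28d_T, so 3 of the 6 libraries held much of it, on both sides of the comparison. Mbp, the myelin basic protein, was at 101, 133 and 85.03 FPKM and 115, 179 and 91.2 FPKM, and 0 of 14 myelin genes were without overlap. Hba-a1, an alpha globin that marks blood, was at 7.38, 8.46 and 1.39 FPKM and 9.31, 32.9 and 9.08 FPKM, without overlap and with R28d_T2 the highest, and it was the 1 of 7 erythroid markers above sham without overlap, with 0 below. The part of these tissues in the differences above was not tested.

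Activity-dependent and mitochondrial genes leaned lower. Of 21 immediate early genes 4 (19.0%) lay below sham without overlap and 1 above, with a median of -0.32. Npas4, induced by calcium entry in neurons, was at 13.4, 17.5 and 13.1 FPKM in sham and 5.85, 7.41 and 9.88 FPKM at 28 d (-0.86, adjusted p = 0.367). Fos was at 22.8, 23.3 and 21.7 FPKM and 11.3, 16.2 and 16.1 FPKM, and Arc, which acts at synapses, at 118, 114 and 109 FPKM and 30.9, 84.4 and 111 FPKM, where R28d_T3 was at the level of sham. Jun was the gene on the other side, at 13.6, 9.43 and 9.97 FPKM and 19.3, 20.05 and 13.99 FPKM. Of the 13 protein-coding genes of the mitochondrial genome 9 (69.2%) lay below sham without overlap, and 7 after scaling by median ratios, with a median of -0.37 and the lowest values in R28d_T1. mt-Nd6, a subunit of complex I, had a difference of -0.44 (adjusted p = 0.436). Of 20 nuclear genes of oxidative phosphorylation 1 lay below without overlap and 0 above.

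Matrix and stress genes gave smaller counts. Of 12 perineuronal net and proteoglycan genes 4 (33.3%) lay below sham without overlap and 0 above. Hapln4, a link protein of the net around fast-spiking neurons, was at 26.8, 28.95 and 26.4 FPKM in sham and 23.6, 24.4 and 23.01 FPKM at 28 d (-0.20, adjusted p = 0.436), and the related Hapln1 at 3.37, 3.99 and 3.57 FPKM and 2.96, 2.81 and 2.68 FPKM. Of 15 heat shock genes 5 (33.3%) lay above sham without overlap, among them the small heat shock protein Hspb1 at 0.495, 1.14 and 0.701 FPKM and 7.84, 3.48 and 1.81 FPKM (1.45, adjusted p = 0.381). Of 11 NRF2 and metallothionein genes 2 (18.2%) lay above sham without overlap and 0 below. Hmox1, the heme oxygenase, was at 2.33, 2.91 and 2.66 FPKM and 16.1, 9.06 and 3.13 FPKM, and the metallothionein Mt1 at 85.9, 114 and 84.6 FPKM and 231, 218 and 119.7 FPKM. These 3 again had their highest value in R28d_T1 and their lowest in R28d_T3. All 16 circadian clock genes overlapped between the groups, and of 14 proliferation genes 1 lay above sham without overlap. Counted in the same way, cytosolic ribosomal protein genes had 6 of 25 (24.0%) above and 0 below, and mural cell markers 4 of 10 (40.0%) and 0. Voltage-gated ion channel genes had 0 of 20 above and 3 (15.0%) below.

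Glucocorticoid-responsive genes lay above a low sham. Of 20 genes 9 (45%) did not overlap on the higher side and 1 on the lower, with a median of 0.30 and similar values in the 3 libraries (0.21, 0.39 and 0.32). Plin4, a lipid-droplet protein, was at 0.687, 0.882 and 1.69 FPKM in Sham_T and 4.97, 8.28 and 10.3 FPKM in R28d_T (2.06, SE 0.27, adjusted p = 0.195). In this gene R28d_T3 was the highest of the 3, the reverse of the glial order. Fkbp5, the co-chaperone of the glucocorticoid receptor, was at 4.34, 3.84 and 4.40 FPKM and 5.71, 7.87 and 9.20 FPKM, and the sulfotransferase Sult1a1 at 4.38, 4.59 and 4.72 FPKM and 7.54, 8.53 and 12.8 FPKM. In the scramble arm the shams held more of these transcripts, with Plin4 at 8.07, 10.6 and 12.01 FPKM, Fkbp5 at 9.76, 9.53 and 8.99 FPKM and Sult1a1 at 11.7, 11.9 and 11.3 FPKM in Sham_C. There the list's median was -0.24, and 0 of 20 lay above sham without overlap. The interaction was 2.38 for Plin4 (SE 0.63, unadjusted p = 0.00312, adjusted p = 0.946), and 7 of 20 had an unadjusted interaction p under 0.05, beside the same shares of 2.51% and 2.33% over all genes. For these 3 genes every Sham_T library lay below every Sham_C library, and the part of this gap in the difference at 28 d was not tested.

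**Figure D5:**
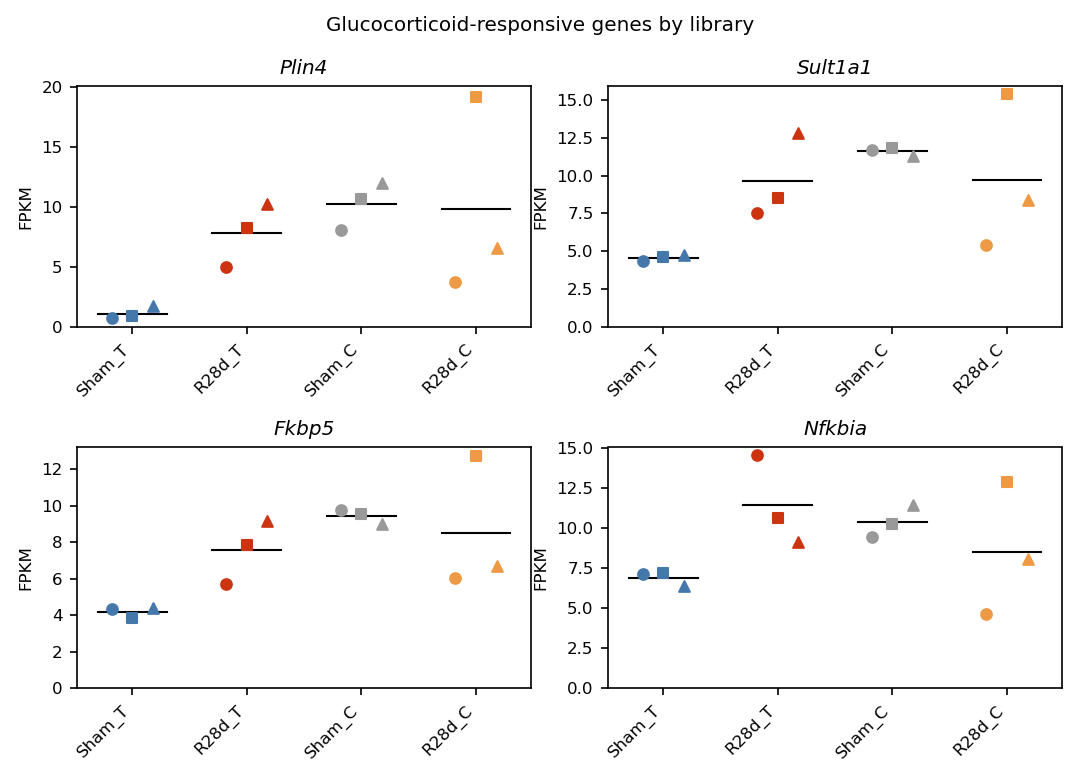
FPKM (linear axis) of Plin4, Sult1a1, Fkbp5 and Nfkbia in each library of Sham_T, R28d_T, Sham_C and R28d_C (points; circle, square and triangle for replicates 1, 2 and 3; the line is the mean). For all 4 genes the Sham_T libraries lie below those of R28d_T and of Sham_C.

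The PARP family, to which Tiparp belongs, lay slightly above sham. Of 16 members 11 passed the filter on low values, 10 (62.5%) did not overlap on the higher side, and Tiparp was the 1 below, with a median of 0.24 over the 16. Parp3, a DNA-damage enzyme, was at 0.995, 0.957 and 1.02 FPKM in sham and 5.69, 2.86 and 1.49 FPKM at 28 d (1.01, adjusted p = 0.412, and 0.0350 without R28d_T3). Parp1, the main poly-ADP-ribose polymerase, was at 11.1, 10.5 and 11.2 FPKM and 12.1, 14.01 and 11.6 FPKM (0.18). Parp12, an antiviral member, was at 2.45, 2.72 and 2.74 FPKM and 4.84, 3.65 and 2.86 FPKM, and Parp14, also interferon-responsive, at 0.209, 0.189 and 0.181 FPKM and 1.35, 0.784 and 0.392 FPKM. Its partner Parp9 was at 0.421, 0.595 and 0.449 FPKM and 1.80, 1.32 and 0.769 FPKM, and Zc3hav1, the zinc-finger antiviral protein, at 0.644, 0.801 and 0.467 FPKM and 2.04, 1.43 and 0.863 FPKM. The interferon-linked members and Parp3 had their highest values in R28d_T1, as the glial lists did. Parp4 and Parp8 had differences of 0.46 and 0.30, Parp2, Parp11, Tnks2 and Tnks of 0.15, 0.10, 0.06 and 0.01, and Parp6 of -0.18. Parp6, Parp10, Parp11, Parp16 and Tnks overlapped between the groups. Among the 10 aryl hydrocarbon receptor genes 3 lay above sham without overlap and Tiparp below. Cyp1b1, a target of the receptor, was at 0.283, 0.361 and 0.153 FPKM and 4.82, 1.26 and 0.441 FPKM, and Ugt1a6a, a glucuronosyltransferase, at 0.451, 0.284 and 0.474 FPKM and 0.978, 0.813 and 0.856 FPKM, whereas Cyp1a1, its best-known target, was at or below 0.0442 FPKM in the 6 libraries. Ahr itself was at 0.890, 0.817 and 1.29 FPKM and 1.78, 1.12 and 1.09 FPKM, with overlap, and its repressor Ahrr was at 0.0719, 0.176 and 0.0972 FPKM at 28 d. Lgals3bp, a secreted galectin ligand, was at 4.01, 6.41 and 3.62 FPKM and 25.9, 13.8 and 9.94 FPKM (1.56, adjusted p = 0.367). Arnt and Nqo1 overlapped between the groups.

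Whether the response at 28 d differed between the arms labelled by their shRNA was tested by the interaction, R28d_T minus Sham_T less R28d_C minus Sham_C. Of 14242 genes limma called 1 higher and 0 lower (0.00702% and 0.0%), and at an unadjusted p under 0.05 there were 358 (2.51%) and 332 (2.33%). This gene, Ube2o, encodes a ubiquitin-conjugating enzyme. It was at 17.2, 17.4 and 18.4 FPKM in Sham_T and 25.9, 23.5 and 27.2 FPKM in R28d_T, against 27.9, 28.9 and 29.8 FPKM in Sham_C and 17.4, 18.4 and 18.6 FPKM in R28d_C. The arms thus moved in opposite directions, with a difference of 1.15 (SE 0.093, adjusted p = 0.00165). They started from shams that stood apart, every Sham_T library being below every Sham_C library. The part of this gap in the difference was not tested. For the glial genes the arms were not told apart. The Gfap difference was 3.20 in the Tiparp arm and 2.05 in the scramble arm, with an interaction of 1.15 (SE 1.21, adjusted p = 0.959). C4b gave 2.80 and 1.79, with an interaction of 1.01 (SE 0.93). The standard errors leave room for a difference of either sign or of several-fold. At 24 h in the Tiparp arm, a comparison that shares the 3 Sham_T libraries, Gfap differed by 2.52, C4b by 1.69, Cldn5 by 1.97, Hmgcs1 by -0.44 and Apoe by -0.45, against 3.20, 2.80, 0.86, -0.74 and 1.52 at 28 d.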

How the data were processed

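Poly(A) RNA of ipsilateral cortex was sequenced in 18 libraries, 6 groups of 3, per the labels' protocols, which name dUTP strand marking, UMIs and 2 different sequencers. The submitters' processing notes list HISAT, StringTie and edgeR without versions or roles and the build mm9. The authors deposited FPKM per gene, so transcript length and library size are already divided out, and a few very abundant transcripts lower all other values. Read totals were not used here.

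All 37319 gene rows entered the filter and the test. Of their symbols 61 repeat, and a list symbol stands for its entry with the highest mean. Both Map2k7 entries are given, since the called one is the lower. Groups were taken from the labels. Genes with at least 1 FPKM in at least 3 of the 6 libraries were tested with limma 3.58.1 (trend, empirical Bayes, two-sided) in R 4.3.3 on log2(FPKM + 1), with Benjamini-Hochberg adjustment over all tested genes at 0.05. The pseudocount of 1 understates differences of low genes. The code was tested on simulated data. Without overlap means that every library of 1 group is above every library of the other. Such counts and list medians cover all members in the table, whether or not they passed the filter, also those at 0 in all 6 libraries. The shares over all genes leave out genes at 0 in all 6 libraries compared. Also tried were array weights, median-ratio scaling, a pseudocount of 0.1, no filter, the replicate block, all 18 libraries in 1 fit, and leaving out libraries.

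The members and the 45 gene lists were chosen with earlier results of these data known. Genes were named by rule: up to 15 per direction by difference or p, up to 4 of each list, all PARP and aryl hydrocarbon receptor genes, defining markers, and 5 per direction of the interaction. The others, from C3, Spp1, Igkc and Igha to further list members, were named after their values were seen. Some list members enter the counts and medians and are not reported here singly. Figures were drawn with matplotlib 3.10.9, and tables made with pandas 2.3.3.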

Additional observations from a re-analysis of the deposited data

Results flagged for a closer look

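The response of Ube2o at 28 d differed between the arms by 1.15 on the log2(FPKM + 1) scale (SE 0.0934, limma adjusted p = 0.00165 over 14242 genes). It was 0.50 in the Tiparp shRNA arm (adjusted p = 0.326), higher in 3 of 3 libraries, and -0.64 in the scramble arm (adjusted p = 0.0365), lower in 3 of 3 libraries. Over the alternatives in which all 12 libraries entered or 1 was left out, the adjusted p was 0.000273 to 0.0152, and it was 0.0866 without both Sham_T1 and Sham_T2. At 24 h Ube2o was at 22.0, 25.6 and 26.6 FPKM in R24h_T and at 25.7, 19.2 and 20.7 FPKM in R24h_C, so that it varied between libraries of 1 group. Every Sham_T library lay below every Sham_C library, and the part of this gap in the difference between the arms was not tested.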

How the results depend on the processing

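The main count of 1 gene higher and 1 lower became 0 and 0 with the replicate block, with all 18 libraries in 1 fit and without both Sham_T1 and Sham_T2, and 1717 and 690 with array weights. With a pseudocount of 0.1, without the filter, or with median-ratio scaling it was 1 higher and 0 lower. Leaving out 1 library gave 0 to 512 higher and 0 to 56 lower, the highest counts without R28d_T3. The interaction gave 1 higher and 0 lower, 3 and 2 without the filter, 8 and 13 with array weights, 0 and 0 without both Sham_T1 and Sham_T2, and 1 to 3 higher and 0 to 1 lower with 1 library left out. The cause of these shifts was not tested.

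The Map2k7 entry had an adjusted p = 0.154 with a pseudocount of 0.1, 0.346 without the filter and 0.0536 with scaling. The Tiparp difference was -0.21 with a pseudocount of 0.1 and with scaling, and -0.23 to -0.13 with 1 library left out. Replicate numbers did not pair the libraries: the deviations of Sham_T and R28d_T libraries with the same number correlated at -0.10, 0.06 and 0.14 for numbers 1, 2 and 3, and under the replicate block Srgap3 had an adjusted p = 0.107 and Ube2o an interaction p = 0.00756 after adjustment. With the filter on low values the median was 1.52 in place of 1.21 for reactive astrocyte genes, 1.69 in place of 1.24 for complement, 1.56 in place of 1.68 for disease-associated microglia genes and -0.24 in place of 0.15 for lymphocyte markers. A member under 1 FPKM in every sham passes this filter only if every R28d_T library reaches 1 FPKM. The filter thus selects in part for the difference itself, and the filtered medians are no separate support. With 3 libraries a group and FPKM alone, counting error cannot be given, and genes under 1 FPKM rest on few fragments.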
